A study of Homo sapiens with 18 samples.

Results

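Chromatin immunoprecipitation and sequencing of RNA polymerase II (Pol II) was compared between 2 of the 18 libraries of the series, 1 library of each kind. Both came from HCT116 INTS11-AID, a line of human colon cancer cells whose INTS11 protein is fused to a degron, so that auxin (IAA) marks it for destruction. The second library is labelled IAA+EGF in its title and its file name. The first is titled EGF, but its file name says IAA, and it was chosen by the file name, under which the pair asks what EGF does to Pol II once INTS11 has been degraded. Under the title, the same pair would ask what IAA does in the presence of EGF. The first library is called the EGF-titled library below. The series holds 8 Pol II libraries, and the other 6 are used only as values set side by side: Control and IAA with 2 numbered libraries each, an unnumbered Control, and an unnumbered library titled IAA whose file name says EGF. All of them carry the tagged INTS11, Control included. One protocol text stands for every sample: serum withdrawal over 14 h, IAA at 500 µM (1 h), EGF at 100 ng per µl (30 min) and interferon beta, which no sample title names. With 1 library for each treatment there is no replicate check and no test, and every interval given covers counting error only.

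EGF binds its receptor at the cell surface and starts the RAS and MAP kinase cascade, which ends in phosphorylation of transcription factors such as ELK1 bound next to SRF on promoters. The first genes to answer are the immediate early genes, among them FOS, EGR1 and JUN, which hold Pol II ready and need no new protein synthesis for their activation. Integrator, whose endonuclease is INTS11, cleaves nascent RNA near gene starts and at small nuclear RNA genes, and it takes part in the release or termination of promoter-proximal Pol II.

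The binding site of SRF is the CArG box. The promoters of EGR1 and EGR2, the members of the immediate early list that stood highest in the comparison below, and of SRF itself hold it in the 250 bases before a tabulated start. FOS is shown beside them as the best known gene of the list, with no match in this window. Sequence farther upstream was not searched, so a gene without a match here may still have a CArG box. Sequences are from RefSeq on GRCh38.p14 and run 5′ to 3′ on the gene's strand, with each CArG box in capitals.
EGR1, chr5:138465229-138465478, plus strand: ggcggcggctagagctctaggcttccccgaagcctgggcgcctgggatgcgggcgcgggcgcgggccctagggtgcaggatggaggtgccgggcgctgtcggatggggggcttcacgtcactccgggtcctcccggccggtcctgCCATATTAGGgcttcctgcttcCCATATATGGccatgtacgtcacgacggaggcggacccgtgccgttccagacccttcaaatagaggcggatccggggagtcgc
EGR2, chr10:62816367-62816616, minus strand: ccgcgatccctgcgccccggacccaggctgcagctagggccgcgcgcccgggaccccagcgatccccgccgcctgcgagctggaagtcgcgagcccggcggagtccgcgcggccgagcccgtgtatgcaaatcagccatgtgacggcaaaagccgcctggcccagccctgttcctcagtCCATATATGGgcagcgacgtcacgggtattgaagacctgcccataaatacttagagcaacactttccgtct
SRF, chr6:43171019-43171268, plus strand: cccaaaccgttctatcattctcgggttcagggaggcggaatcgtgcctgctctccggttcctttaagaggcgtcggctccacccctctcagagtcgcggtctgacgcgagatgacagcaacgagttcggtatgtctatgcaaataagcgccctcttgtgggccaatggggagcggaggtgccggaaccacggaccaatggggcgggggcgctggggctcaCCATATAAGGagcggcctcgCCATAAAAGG
FOS, chr14:75278578-75278827, plus strand: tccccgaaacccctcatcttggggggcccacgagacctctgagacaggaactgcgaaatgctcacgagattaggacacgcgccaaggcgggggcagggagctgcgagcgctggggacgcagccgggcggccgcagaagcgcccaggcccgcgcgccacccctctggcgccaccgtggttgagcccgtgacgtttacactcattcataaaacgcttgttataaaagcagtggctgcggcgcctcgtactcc
The boxes of EGR1 begin 105 and 83 bases before the start, that of EGR2 begins 71 bases before, and those of SRF begin 30 and 10 bases before. Both strands were searched, and the printed EGR2 window holds the summit compared below in both libraries. It occurred at 251 of 15812 genes with a promoter entry (1.59%).

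The titles were first set against the data. EGR1 encodes a zinc finger transcription factor that answers growth factors within minutes. Pol II density in the 10 kb around its start peak is given here in multiples of each library's genome-wide background. It was 15.1 in the unnumbered Control and 109 in the library titled IAA with EGF in its file name. In the EGF-titled library it was 17.2, and in the IAA+EGF library 35.8. The EGF-titled library thus stood next to Control at EGR1, and the library titled IAA stood highest of the 8. The numbered Control libraries had 20.8 and 18.6 and the numbered IAA libraries 6.71 and 9.11.

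A second comparison used genes marked by IAA in the numbered libraries. At 109 genes, both numbered IAA libraries exceeded both numbered Control libraries at least 1.5 times. Relative to the unnumbered Control, and to the median gene, 102 of these genes were higher in the EGF-titled library, 104 in the IAA+EGF library and 53 in the library titled IAA. At 332 genes the numbered IAA libraries were at least 1.5 times lower. Of these, 303 were lower in the EGF-titled library, 299 in the IAA+EGF library and 131 in the library titled IAA. These 3 counts share the unnumbered Control and are given side by side. No group was reassigned on these values.

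The kept lists held 27701 peaks in the EGF-titled library and 28921 in the IAA+EGF library, after removal of peaks overlapping an input peak. The genome-wide background, a measure of depth, was 6.43 and 8.03 fragments per kb. Summits within 1 kb of a gene start made up 47.1% and 44.8% of peaks, and summits elsewhere inside genes 20.9% and 23.0%. Of the peaks, 85.3% and 81.1% shared at least 1 bp with a peak of the other list. Start peaks were found in both libraries at 9 of 12 colon epithelium markers, among them EPCAM, CDH1 and KRT8, at 0 of 8 blood cell markers, 0 of 6 fibroblast markers and 3 of 6 neuron markers, where 60.6% of all protein-coding genes had one in both. The shares of colon and neuron markers lay near that of all genes.

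Pol II at EGR1 was the largest difference in the comparison of start windows. The 10 kb around its start summit held 1106 fragments in the EGF-titled library and 2873 in the IAA+EGF library. The median gene had 1.12 times as many fragments in the IAA+EGF library, and relative to that gene EGR1 was 2.31 times as high (exact 95% interval 2.16 to 2.48). This was the highest ratio of 10035 genes whose summits lay within 500 bp of each other and whose window held at least 200 fragments in either library. At the summit itself the stack was 136 fragments (exact Poisson 95% interval 114 to 161) and 212 (184 to 243).

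The gain was not confined to the start. EGR1 spans chr5:138465479-138469303 on GRCh38, 3825 bp. A peak behind its 3′ end, with its summit 4341 and 4607 bp from the start, had a stack of 31 fragments and a width of 388 bp in the EGF-titled library. In the IAA+EGF library it had a stack of 128 and a width of 1452 bp. The window around it held 594 and 1933 fragments, 2.90 times as many relative to the median gene (2.64 to 3.18). An upstream peak, with its summit at -1444 and -1384 bp from the start, had stacks of 86 and 121, and its window ratio was 2.02 (1.88 to 2.17). The 3 windows overlap and are not independent. The ratio was highest on the 3′ side. In the library with EGF in its file name, a single peak of 3622 bp covered most of the gene, with a stack of 358 at the start, and a second one lay behind the gene with a stack of 330.

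**Figure D1:**
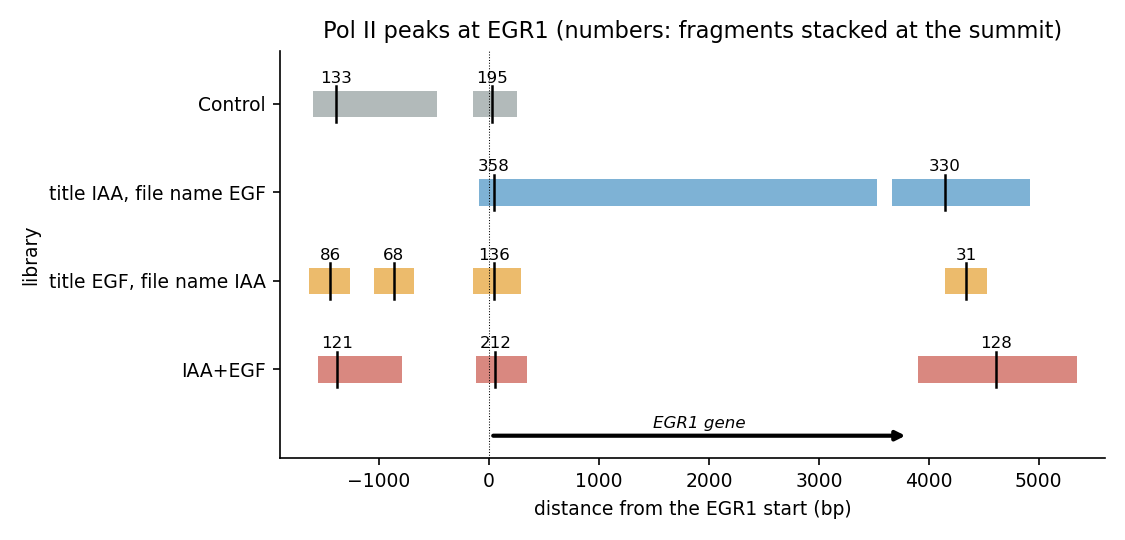
Pol II peaks at EGR1 in the 4 unnumbered libraries, by distance from the start in bp, with bars for peak extent, black ticks for summits and numbers for stacked fragments. The peak behind the gene has 31 fragments in the EGF-titled library, 128 in the IAA+EGF library and 330 in the library titled IAA, and the Control list has none there.

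Across the window comparison, 172 of 10035 genes were at least 1.25 times higher in the IAA+EGF library (1.71%) and 227 were at least 1.25 times lower (2.26%). Of the 48 immediate early genes, 44 could be compared, and 12 were higher and 0 lower by this measure. These were EGR1, EGR2, FOSL1, FOS, FOSB, HES1, KLF2, BHLHE40, DUSP2, NR4A3, JUN and JUNB. The list had 4 of the 10 highest ratios and 11 of the 100 highest, while it makes up 0.438% of the genes compared. It was drawn up with earlier results of these data known, and the window measure was added after the data were seen. These shares are therefore a description only. The median of the list was 0.20 on the log2 scale, against 0.01 over all genes compared. Of its members 42 of 44 lay above the median gene, as did 5255 of all 10035.

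Window size moved with the ratio. Among genes with at least 1000 fragments in either library, 85.7% lay above the median gene and 5.93% passed 1.25 times, against 40.3% and 1.07% from 200 to under 500 fragments. Immediate early genes have large windows. Of 27 with at least 1000 fragments 26 lay above the median gene and 7 passed, and of 12 from 500 to under 1000 fragments 12 lay above and 4 passed, where all genes of that size had 65.5% and 1.77%. The part of window size in the list's median was not tested.

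**Figure D2:**
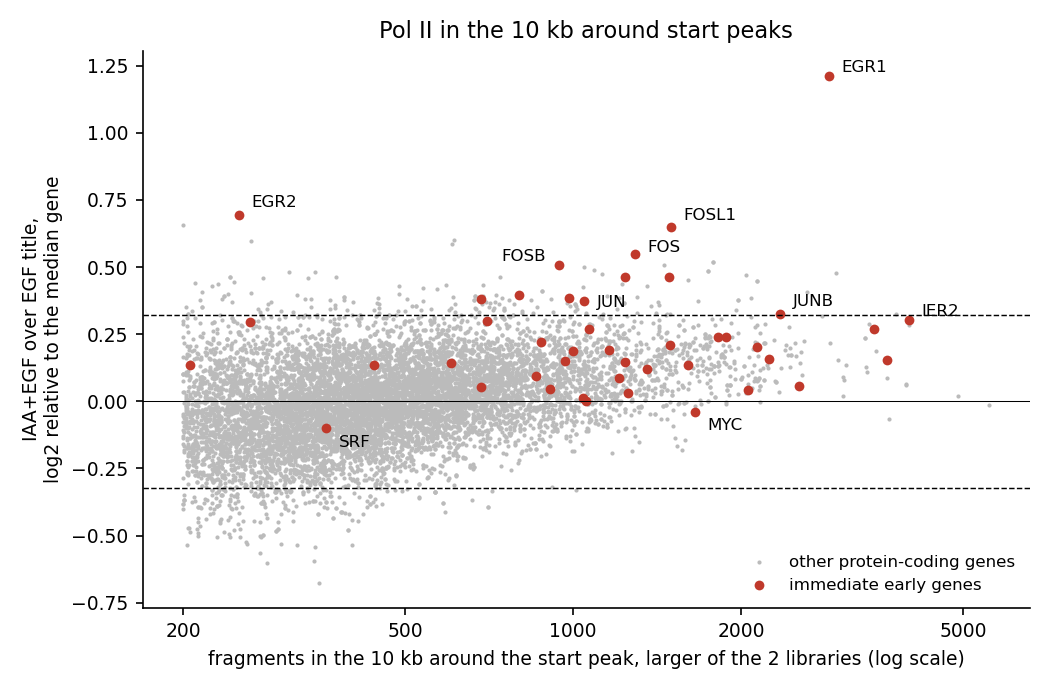
Fragments in the 10 kb around the start peak, larger of the 2 libraries, against the log2 ratio of IAA+EGF over EGF title relative to the median gene, for 10035 genes, with dashed lines at 1.25 times either way. EGR1 lies at 1.21, above every other gene, while SRF and MYC lie below 0.

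FOS, FOSB and FOSL1 encode partners of JUN in the AP-1 transcription factor. FOS held 787 fragments in the EGF-titled library and 1292 in the IAA+EGF library, a ratio of 1.46 (1.34 to 1.60). Its start summit was already among the strongest of the list, with a stack of 287 and 305 against a limit of 410 and 398, which is 2 fragments per bp of the shortest peak width. FOSB held 591 and 942 fragments, a ratio of 1.42 (1.28 to 1.58), and its stack was 170 and 230. A peak 10718 and 10648 bp from the FOSB start, beyond its 3′ end, had a ratio of 1.72 (1.43 to 2.09) on 168 and 325 fragments. FOSL1 held 851 and 1499 fragments, a ratio of 1.57 (1.44 to 1.71). Windows of 2 peaks just outside the other end of the gene stood at 1.33 (1765 and 2629 fragments) and 1.39 (1892 and 2955). They overlap each other and hold more fragments than the FOSL1 start window. Whether these peaks belong to FOSL1 or to a neighbouring gene was not tested. FOSL2 did not pass, with 995 and 1237 fragments and a ratio of 1.11 (1.02 to 1.21).

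JUN held 720 and 1046 fragments, a ratio of 1.29 (1.18 to 1.43), and JUNB 1672 and 2351, a ratio of 1.25 (1.18 to 1.33). JUND did not pass, at 1.18 (1.10 to 1.27). In the AP-1 family FOS, FOSB and FOSL1 had the highest ratios and FOSL2 the lowest, and the intervals of FOSB and JUN overlap.

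EGR2, a relative of EGR1, had one of the weakest start peaks on the list, with a stack of 21 and 25 fragments. Its window held 139 and 252, a ratio of 1.62 (1.31 to 2.00). EGR3 had a start peak in the IAA+EGF library alone, with 28 stacked fragments and a width of 210 bp. A peak near the same gene that both lists share had 213 and 343 fragments in its window, a ratio of 1.44 (1.21 to 1.71), so the gained call went with a higher surrounding density. EGR4 had 167 and 206 fragments, a ratio of 1.10 whose interval of 0.892 to 1.36 includes 1.

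Of the nuclear receptors of the NR4A family, NR4A3 held 467 and 683 fragments (1.303, 1.16 to 1.47) and NR4A2 1372 and 1817 (1.18, 1.10 to 1.27). At NR4A1 the summits of the best start peaks lay 522 bp apart and were not compared. Around its first start 2 matched windows had ratios of 1.04 and 1.03, both with intervals that include 1. The windows of 2 peaks 28002 and 28664 bp from that start, inside the annotated gene, stood at 1.54 (1.37 to 1.74) and 1.59 (1.41 to 1.79). These 2 windows overlap. The peak at 28664 bp was the strongest of the locus in both libraries, with stacks of 92 and 97, against 34 and 29 at the best start peaks. No tabulated start lies within 1 kb of it, so the ratios at the first start do not describe the strongest NR4A1 peak.

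KLF2, a Krüppel-like transcription factor, held 802 and 1239 fragments (1.38, 1.26 to 1.51), and a peak 5850 bp from its start, beyond the gene, had stacks of 37 and 70 and a ratio of 1.67 (1.498 to 1.86) in a window that overlaps the first. KLF6 and KLF4 were at 1.10 each and did not pass. DUSP2, a phosphatase of MAP kinases in the nucleus, held 671 and 982 fragments (1.304, 1.18 to 1.44). DUSP1, with the same role, held 781 and 999 (1.14, 1.04 to 1.25). IER2 and IER3 had the largest start windows named here for this pair, with 2894 and 4001 fragments and with 2553 and 3453. They stood at 1.23 and 1.21. The start peak of IER2 had stacks of 131 and 159. Its strongest peak in both libraries lay 2693 and 2694 bp from the start, inside the gene, with stacks of 305 and 303. The window there overlaps the start window and stood at 1.29 (1.23 to 1.35). Near that position Control held 2681 fragments and the library with EGF in its file name 4889. ATF3, a transcription factor of stress and growth signals, had no start peak in either library by the tabulated starts. The strongest peak of its locus in both lay 43409 and 43417 bp from the annotated start, inside the gene. It had stacks of 254 and 256 and a window ratio of 1.23 (1.13 to 1.35).

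Other well known targets did not differ by this measure. MYC held 1513 and 1653 fragments, a ratio of 0.974 (0.908 to 1.04). SRF, whose own promoter holds 2 CArG boxes, held 345 and 361, a ratio of 0.933 (0.802 to 1.08). PPP1R15A and PLK2 stood at 1.00 and 1.01.

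The unnumbered Control and the library with EGF in its file name share no library with the pair above, and their windows give a second set of ratios. There 404 of 10564 genes were at least 1.25 times higher (3.82%) and 543 lower (5.14%), and of 44 immediate early genes 22 were higher and 0 lower. Above the median gene lay 32 of these 44, fewer than the 42 of 44 in the first pair. EGR1 was 6.30 times as high (5.93 to 6.70), with 1213 and 7972 fragments. FOS stood at 2.46 (2.249 to 2.70), JUN at 2.98 (2.68 to 3.32) and EGR2 at 2.60 (2.16 to 3.15). For each of these 4 genes the interval lay above that of the pair with IAA in both file names. FOSB stood at 1.31 (1.17 to 1.47) against 1.42, with overlapping intervals. HES1, a Notch target, was higher in the IAA+EGF library (961 and 1487 fragments, 1.38, 1.27 to 1.497) and lower in this second pair (0.867, 0.782 to 0.962). IER3, IER5L, MYC, TRIB1 and ZFP36L1 also had intervals under 1 in the second pair, at 0.914, 0.940, 0.843, 0.865 and 0.874. In the first pair they stood at 1.21, 1.12, 0.974, 1.04 and 1.03. RHOB, a small GTPase, was at 1.87 in the second pair and at 1.16 in the pair with IAA. SRF passed in the second pair, at 1.27 (1.12 to 1.45), and stood at 0.933 (0.802 to 1.08) in the first. The difference between the pairs rests on 1 library for each label and was not tested.

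**Figure D3:**
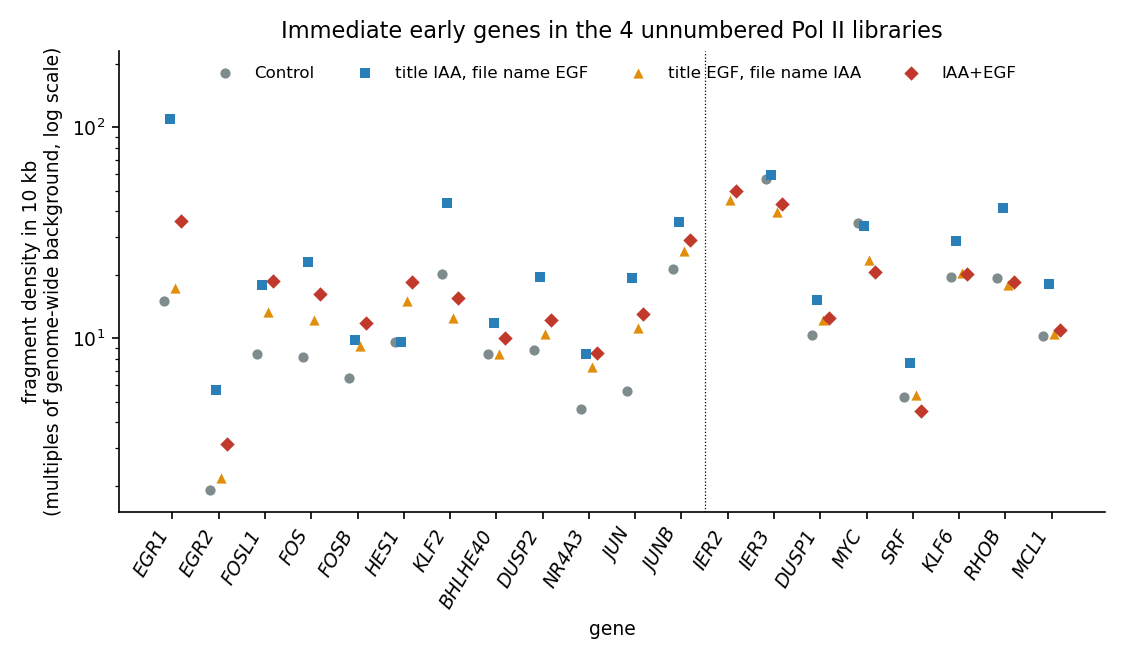
Fragment density in the 10 kb around the start peak, in multiples of the genome-wide background on a log axis, for 20 immediate early genes in the 4 unnumbered Pol II libraries, with the 12 genes past 1.25 times left of the dotted line and 8 chosen to show the rest on the right. The IAA+EGF library lies above the EGF-titled library at all 12, which follows from their choice by the same windows. IER2 has no start peak compared in the other 2 libraries.

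In density, 45 immediate early genes had a start peak in all 4 unnumbered libraries. The library titled IAA was highest at 25 of them, the EGF-titled library at 10, the IAA+EGF library at 8 and Control at 2. Control was lowest at 32 of the 45. Densities depend on the genome-wide background, which lay 1.25 times higher in the IAA+EGF library than in the EGF-titled library while the median gene window was 1.12 times higher. Dividing by it shifts the median gene by -0.15 on the log2 scale. On that scale 19 of 10035 genes passed upward (0.189%) and 1296 downward (12.9%), and of 44 immediate early genes 5 passed upward and 0 downward. These 5 were EGR1 at 2.08, EGR2 at 1.45, FOSL1 at 1.41, FOS at 1.32 and FOSB at 1.28. JUN, at 1.16, and the other 6 genes named above did not pass on that scale.

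Beyond the immediate early list, the highest windows were at GOLGA6D (1.58), VCL (1.52), AXIN1 (1.51), FUCA1 (360 and 606 fragments) and the start of POLG2 (1.43). The POLG2 peak also counted for MILR1, a gene without a tabulated strand that was read from either end. Whether it marks a start of MILR1 was not tested. VCL encodes vinculin, a protein of cell adhesions, and its window held 359 and 611 fragments (1.33 to 1.73). It stood at 1.68 in the pair without IAA in its file names. GOLGA6D, of a family of near-identical copies, rests on 113 and 200 fragments whose assignment among the copies is uncertain, and stood at 0.790 there. ACTB, the cytoskeletal actin gene, held 1049 and 1609 fragments (1.37, 1.26 to 1.48) and stood at 2.04 in the other pair. TNFRSF12A, a receptor of the tumour necrosis factor family on the delayed early list, held 911 and 1453 (1.42, 1.31 to 1.55).

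Of the genes that passed upward and have a promoter entry, 7 of 141 held a CArG box in the 250 bases before a start (4.96%), against 116 of 8356 genes compared (1.39%) and 2 of 186 that passed downward (1.08%). The 7 were EGR1, EGR2, ROCK2, ATXN1, SCHIP1, CCNB1IP1 and LPP, named after their values were seen. The motif search was itself added after the data were seen, and EGR1 and EGR2 have the 2 highest ratios, so the share is a description only. In the pair without IAA in its file names ROCK2 stood at 1.31, CCNB1IP1 at 1.27, SCHIP1 at 1.09 and LPP at 1.06. ATXN1 was not compared there. Among immediate early genes 3 of 38 held a CArG box in these 250 bases, EGR1, EGR2 and SRF. Sequence beyond them was not searched. A match is a description of letters and shows no binding.

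The lowest windows were at ARID5B (350 and 246 fragments, 0.626, 0.530 to 0.739), BBS2 (283 and 209, 0.658), the neighbouring genes BPNT1 and IARS2 (0.663 and 0.687), BET1 (0.677) and INSIG2 (203 and 157, 0.689). BPNT1 and IARS2 have separate peaks, with windows of 343 and 255 and of 344 and 265 fragments. Overlap of these windows was not tested, so both ratios may rest on shared fragments. INSIG2 encodes a protein that retains the sterol sensor of lipid synthesis in the endoplasmic reticulum. ARID5B, BBS2, BET1 and INSIG2 stood between 0.566 and 0.729 in the pair without IAA in its file names as well, whereas BPNT1 and IARS2 stood at 1.01 each. All of these windows lay under 500 fragments, the size range in which 3.59% of genes passed downward.

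For the other lists, counts are read against the 1.71% of all genes that passed upward and the 2.26% that passed downward, so 0 or 1 in a list of this length lies near the background. Of 14 MAPK feedback genes compared, which encode phosphatases and SPRY proteins that damp the cascade, 0 passed in either direction, and their median was 0.10, which turned to -0.05 when windows were divided by the genome-wide background. DUSP5 stood highest at 1.23 (1.14 to 1.33), DUSP6 at 1.10 (1.03 to 1.17) and DUSP10 lowest at 0.869. Of 26 genes of EGF receptor signalling 0 passed upward and 1 downward, GAB1, a docking protein of the receptor (200 and 170 fragments, 0.758, 0.614 to 0.934), and the median was -0.05. Of the EGF family ligands 0 of 5 passed, with HBEGF at 1.13, AREG at 1.02 and EREG at 1.00. EGF itself had a start peak of 14 stacked fragments in the EGF-titled library alone. Of 18 delayed early genes 1 passed upward, TNFRSF12A, and CCND1, encoding cyclin D1, stood at 1.22 (1.14 to 1.299).

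Of 14 Integrator subunits 0 passed upward and 1 downward, INTS9, the partner of INTS11 in the cleavage module (277 and 245 fragments, 0.788, 0.661 to 0.939). INTS11 held 425 and 493 fragments, a ratio of 1.03 (0.906 to 1.18). The degron acts on the protein, so this value does not check its loss. Of 26 pausing and elongation factors 0 passed, and of 37 replication-dependent histone genes 0 passed, with 32 above the median gene. Of 19 housekeeping genes ACTB alone passed and 18 lay above the median gene. Division by the genome-wide background lowers every ratio by the same factor. A ratio above 1 was then left at 1612 of 10035 genes (16.1%), 5 of 37 histone genes (13.5%), 6 of 19 housekeeping genes (31.6%) and 25 of 44 immediate early genes (56.8%). Upward past 1.25 times stood 12 immediate early genes relative to the median gene and 5 after this division, and at most 1 gene of any other list under either scaling.

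**Figure D4:**
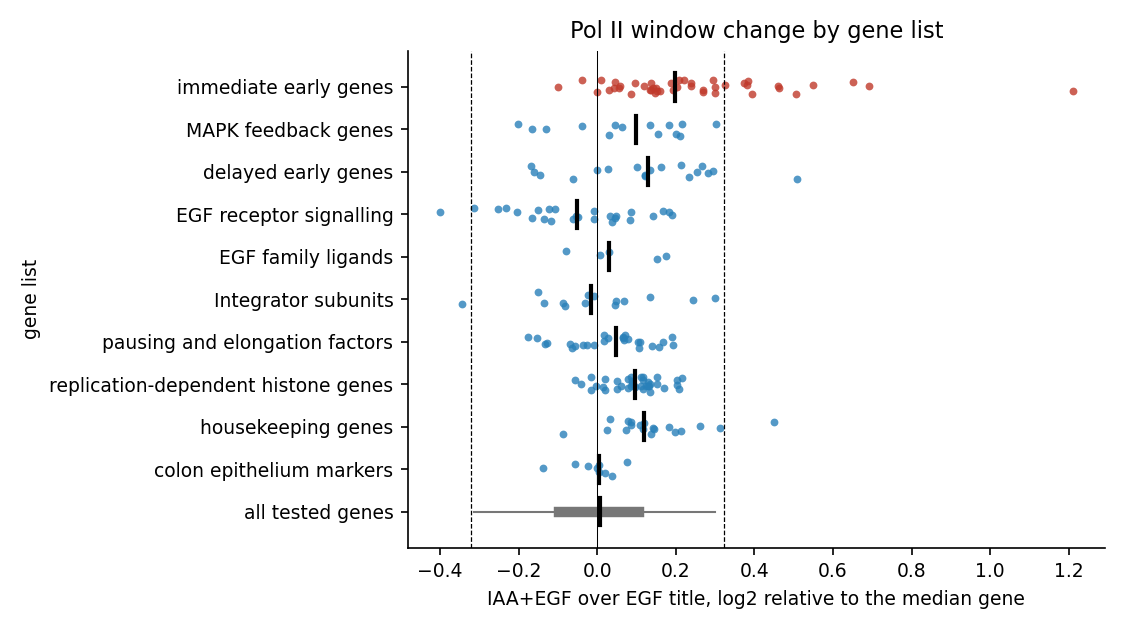
Log2 ratio of window fragments, IAA+EGF over EGF title, relative to the median gene, for the members of 10 gene lists, with a black bar at each median, dashed lines at 1.25 times and, at the bottom, the middle 50% and 95% of 10035 genes. The immediate early genes have a median of 0.20 and 12 members right of the dashed line, and the other lists have at most 1.

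Of the small nuclear RNA genes, most of whose transcripts Integrator processes, 22 of 22 had a peak within 1 kb in both libraries, on 21 distinct peaks. The 22 include RNU6ATAC, a Pol III gene that is not an Integrator substrate (367 and 422 fragments, 1.02). Window ratios of the 22 genes ran from 0.955 to 1.13 with a median of 1.03, and 0 passed in either direction. The median distance of the summit from the gene was 323.5 bp in the EGF-titled library and 341 bp in the IAA+EGF library.

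By presence, the libraries differed at few genes. Start peaks were found in both at 12110 protein-coding genes, in the IAA+EGF library alone at 184 of 12513 (1.47%) and in the EGF-titled library alone at 219 (1.75%). Of the immediate early genes 46 had one in both, 1 was gained, EGR3, and 0 were lost. The 6 gained genes ranked highest were H1-4, WDR88, UBTD1, EP300, C1orf232 and UBE2M. Their nearest summit in the EGF-titled library lay 8 to 1017 bp away, beyond the limit of 1 kb from a start. EP300, a histone acetyltransferase and coactivator, is an example, with 106 stacked fragments and another summit 455 bp away. The 6 lost genes were S100A1, SMCO3, LANCL2, FNBP4, LGSN and SYNCRIP, with a summit 9 to 631 bp away in the IAA+EGF library. These top ranked genes were not typical: over all, the other list had a summit within 2 kb for 35 of 184 gained genes (19.0%) and for 49 of 219 lost genes (22.4%), and the median distance was 10366 and 10423 bp. Gained genes had a median list percentile of 19.5 and lost genes 18.9, where 100 is the strongest peak, against 79.2 and 78.1 for genes found in both. Of the gained genes, 67.4% had a start peak in the unnumbered Control, and of the lost genes 77.2%.

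Rank was compared among the 12110 genes found in both, by −log10 q within each library. Across genes the ranks had a Spearman correlation of 0.943, which shares the gene set and is a description. Start peaks stood at least 10 percentile points higher in the IAA+EGF library at 1614 genes (13.3%) and lower at 1632 (13.5%). Of 46 immediate early genes 5 were higher and 4 lower, with a median shift of -0.11 points against 0.06 over all genes. Ranked by fold instead, the list had a median shift of -3.82 points. EGR1 moved from percentile 63.7 to 59.1 although its stack was larger, because −log10 q sets the summit against the fragments in the surrounding 10 kb, which were more numerous too. NR4A2 moved from 86.4 to 65.8 and KLF6 from 76.4 to 59.2, while CSRNP1 moved from 18.5 to 39.2 between summits 1007 bp apart, BHLHE40 from 11.5 to 26.9 and JUND from 23.4 to 35.9. Among genes at percentile 50 or above in either library, the largest changes included GULP1 (from 2.47 to 69.8), ANAPC7 (33.5 to 79.4) and SYN2 (42.5 to 83.6) upward, and SPMAP2L (66.9 to 19.2), SGSM2 (57.3 to 10.7) and LZTFL1 (81.3 to 38.2) downward. The GULP1 and SGSM2 values compare different summits, 1336 and 996 bp apart, as did 54 of the 1614 upward and 34 of the 1632 downward changes, with summits over 500 bp apart. SPMAP2L rests on a stack of 61 and 29 fragments and SYN2 on 53 and 98.

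**Figure D5:**
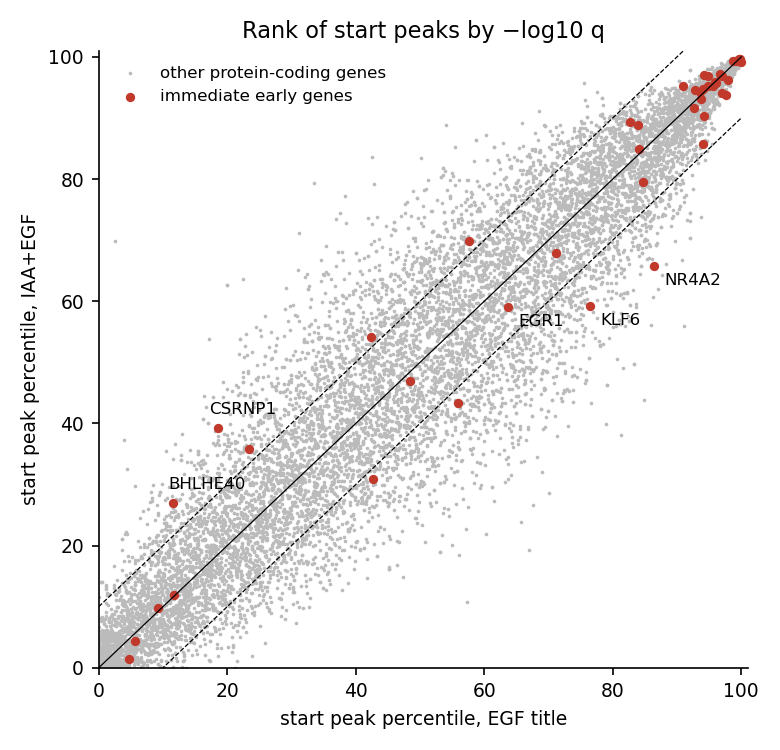
Percentile of each start peak by −log10 q among 12110 genes with a start peak in both libraries, EGF title on the x axis and IAA+EGF on the y axis, with dashed lines at 10 points either way. Immediate early genes lie on both sides of the diagonal, with EGR1 at 63.7 and 59.1.

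Width was compared for the same peaks. The median ratio was 0.999, and 1.03 after division by each library's shortest width, which follows its fragment length. Start peaks were at least 1.5 times as wide in the IAA+EGF library at 666 genes (5.5%) and at least 1.5 times as narrow at 649 (5.36%). Of the immediate early genes 2 were wider and 3 narrower. BHLHE40, a transcription factor of the circadian and stress response, went from 324 to 1571 bp with stacks of 50 and 78, and was among the 4 largest gains of all genes, with IGF1R, NUP210L and RHOF. NR4A2 went from 2006 to 535 bp and was among the 4 largest losses, with TYMP, ARL14 and MSI2. The summits of IGF1R, RHOF, TYMP and ARL14 lay 1135, 933, 518 and 668 bp apart, so these ratios compare different peaks, while those of BHLHE40, NUP210L, NR4A2 and MSI2 lay at most 28 bp apart. Of the wider calls 97 and of the narrower calls 64 had summits over 500 bp apart. The NR4A2 window stood at 1.18 although its peak was narrower.

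Interior peaks, with a summit over 1 kb inside both ends of a gene, were found in the IAA+EGF library alone at 920 of 5671 genes (16.2%) and in the EGF-titled library alone at 517 (9.12%). Of the immediate early genes 9 had one in both, 3 gained and 1 lost. The genes with the strongest gained interior peak were SCAF8, SYNCRIP, NCAPD3 and LANCL2, and those with the strongest lost were ARL6IP6, MIDN, ZBTB43 and TAX1BP1. SYNCRIP and LANCL2 also stood among the lost start peaks, with the nearest summit of the IAA+EGF library 425 and 631 bp from the lost one. With lists cut to equal length the counts were 754 and 569.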

How the data were processed

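Peak lists of 8 Pol II and 2 input libraries were used. Per the submitters' processing notes, MACS2 2.2.7.1, Bowtie2 2.3.4.1, Trim Galore 0.6.6, deepTools 3.5.1 and Picard 2.25.7 were used with hg38. Options were not given in the sources used here. Each list the authors deposited has, for every peak, a score, the summit, the fold over local background, −log10 q and −log10 p. The −log10 q and the fold were ranked within a list, and the fold and p also served to recover the fragment counts described below. Widths and summit positions were compared directly between lists. No list gives read totals.

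From the deposited fold and p, the stacked fragments at each summit and the background around it were recovered: 1 is added to numerator and denominator of the ratio, and p follows a Poisson distribution. Whole fragments matched within a relative tolerance of 0.0002 for 99.5% to 100% of peaks, and the background times 10000 bp over the shortest peak width was whole, within 0.05, for 100% of peaks above the genome-wide background. This number was taken as the fragments in the 10 kb around the summit, so each library served as its own background. On peaks simulated with the same formula the solution returned what was put in. This checks the solving step only and cannot show that the deposited values were made by that formula. Window ratios were divided by that of the median gene (1.12), with an exact binomial 95% interval. A ratio of 1.25 was called.

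Only chromosomes 1 to 22 and X entered, and peaks sharing 1 bp with an input peak were dropped (0.955% and 1.32%). Starts came from the RefSeq promoter table for 15812 of 19974 protein-coding genes; either gene end served for the other 4162. All 301 symbols of 14 lists were matched. Named genes are the 6 highest gained and lost, the 6 largest rank changes each way at percentile 50 or above, the 4 largest width ratios and interior peaks each way, the 12 most extreme windows each way, the list members gained, lost or most changed, and a fixed set around FOS and EGR1; windows, the 12 extremes and the promoter motif were added after the data were seen. Members and lists were chosen with earlier results of these data known. Python 3.11.15, pandas 2.3.3 and scipy 1.17.1 were used.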

Additional observations from a re-analysis of the deposited data

How the results depend on the processing

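No paired analysis was possible because each group is 1 library without a number. Taking the library titled IAA in place of the EGF-titled one turned EGR1 to 0.395 relative to the median gene and gave 364 lost start peaks, 1217 narrower peaks, 1240 lost interior peaks, a median percentile change of 0.845 for the immediate early list, 1367 windows higher and 1120 lower, and a median window change of 0.0054 (log2) for that list, so every statement on the response rests on which label holds. Dividing windows by the genome-wide background gave 19 higher and 1296 lower, a list median of 0.0435 and 2.08 for EGR1. Summits within 500 bp of a start gave 280 gained genes. Ranking by fold gave the list a median percentile change of -3.82. The other 69 values moved by less than 1.5 times or stayed within their interval. Some belong to the settings above. Among these, the exchange of the library gave 2418 higher and 2417 lower rank calls, against 1614 and 1632. The rest came from equal list lengths, kept input peaks, input peaks covering 50% of a peak, a −log10 q of at least 5, either gene end, summits within 250 bp and at least 100 fragments. The window alternatives were chosen after seeing the data. Summits near 2 fragments per bp of shortest width (405 of 410 and 394 of 398) are limited, and small windows have wide intervals.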
